A study of Sus scrofa with 6 samples.

Results

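The wide-span exonic circRNAs of pig testis were the circRNAs annotated as exonic, with 3 to 7 exons between their ends and a genomic distance of at least 20000 nt from end to end. Of the 4350 circRNAs in the table analysed here, 2552 were exonic and 375 met this rule. They came from 168 host genes. Their closest counterparts, called compact here, were the 1215 exonic circRNAs with the same number of exons and a span under 20000 nt. The rule used only annotation and coordinates and no read count.

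Testis RNA of Landrace boars was sequenced from 3 piglets at 30 days of age (Piglet-D30) and 3 adults at 210 days (Adult-D210), with 1 library per boar. All 6 animals were untreated, and ribosomal RNA was removed and linear RNA digested with RNase R in every library. The study asked how testis circRNAs differ before and after sexual maturity. The samples were pieces of whole testis, so that a change in the number of cells of a type and a change in the RNA per cell cannot be told apart.

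A circRNA forms when a downstream splice donor joins an upstream splice acceptor, a reaction called back-splicing. The closed ring that results has no free end and resists exonucleases such as RNase R. Back-splicing often brings together exons that lie between long introns, and 1 gene can release several rings that share a splice site. Testis is among the tissues rich in circRNAs, and its cell makeup changes greatly at puberty, when meiotic and haploid germ cells accumulate.

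Reads that cross the back-splice junction were the measurement. They identify the 2 ends of a ring but not the exons retained inside it, and the exon number of the table is the number annotated between the ends. Abundance is given as the number of such reads and as SRPBM, in which the junction reads are scaled to the mapped reads of the library and to the read length of 150 nt. Each circRNA is counted at 1 junction, so neither value depends on its length. Coordinates are those of the deposited table, counted from 1, and the submitters' processing notes name the build Sscrofa10.2.

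BAIAP2 circRNA12280 (chr12:1537756-1559476, minus strand, 5 exons) was the wide-span circRNA that the study also assayed by RT-qPCR. Its designed primers are shown because they tell the ring from the linear transcript of the same host. The primers for the ring and for the linear transcript, all 5′ to 3′ and all in lower case because no part is marked, were as follows.
Circular forward: ctgaagaagctccgcaagaaga
Circular reverse: ttggccgcatacgtcacac
Linear forward: agcctgcggaacttcattgc
Linear reverse: aatctgcctgtggacctcgg

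The table held 12701 to 33091 junction reads per library, against 37364412 to 49179118 mapped reads. Each exonic circRNA listed was present in Piglet-D30 replicate 1, whereas no other library had a read for more than 186 of the 375 wide-span circRNAs. Detection in that library was therefore fixed by the table, and several results that rest on it are given with and without it. Leaving it out does not change which circRNAs are listed. Exonic circRNAs came from 5 of the hosts listed as genes of meiotic or haploid germ cells, with 116, 67 and 76 reads in all in Piglet-D30 replicates 1 to 3 and 336, 144 and 105 in Adult-D210 replicates 1 to 3. They were TDRD9, MORC1, MND1, IQCG and SLC9B1, and each had at least 15 reads in the piglet group. By histology, the paper reported spermatogonia as the only germ cells of the young boars. Reads of these hosts can therefore not be taken as a measure of meiotic or haploid cells. SLC9B1 alone gave 308 of the 585 adult reads, whereas MORC1 had 71 reads in piglets and 26 in adults and MND1 15 and 0. Of the other germ cell hosts (ADAD1, SPATA16, DAZL and SLC9C1) and of the 6 somatic or spermatogonial hosts (KIT, PDGFRA, INSL3, HSD17B1, PTGDS and TCF21) the table listed no exonic circRNA, so these could not be used to check the cell makeup. The part of cell makeup in the results below was not tested.

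The ends of the 375 wide-span circRNAs lay 20034 to 329749 nt apart, and the median distance was 30410 nt. Chromosome 13 held 249 of them, chromosome 8 held 92, chromosome 7 held 30 and chromosome 12 held 4, and all 2552 exonic circRNAs of the table lay on these same chromosomes. Other circRNAs of these libraries were not analysed here, so counts of chromosomes, hosts and classes describe the table and not the testis. By exon number, 56 had 3 exons, 92 had 4, 89 had 5, 68 had 6 and 70 had 7. The host lay on the plus strand for 174 of them and on the minus strand for 201. The introns on both sides were also long. For the 365 wide-span circRNAs with both flanking introns listed, the 2 introns together had a median of 25068 nt, against 9899 nt for 1204 compact circRNAs. These lengths come from the gene annotation and were not tested.

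Median reads and recurrence were lower in the wider of these circRNAs, as a description without a test. The 184 circRNAs of 20000 to under 30000 nt had a median of 11 reads over the 6 libraries, and 40 of them (21.7%) were seen in every library. The 117 circRNAs of 30000 to under 50000 nt had a median of 10 reads, and 20 (17.1%) were seen in every library. For the 50 circRNAs of 50000 to under 100000 nt the median was 7 reads and 6 (12%) were seen in every library. At 100000 nt and above, the 24 circRNAs had a median of 4 reads and 0 were seen in every library. The trend was weak, with a Spearman correlation of span and mean SRPBM of -0.12 over the 375. Below 50000 nt the median SRPBM was nearly equal, 0.287 under 30000 nt and 0.286 from there on.

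Of the 3 widest rings, 2 rested on 1 or 2 reads. ARHGAP24 circRNA10463, from a host that encodes a Rac GTPase-activating protein, spanned 329749 nt (chr8:142313992-142643740) with 3 exons and had 2 reads, both in Piglet-D30 replicate 1. LRBA circRNA10154, from a host for a vesicle-traffic protein, spanned 216394 nt (chr8:83064146-83280539) with 5 exons and had 6, 6 and 0 reads in Piglet-D30 replicates 1 to 3 and 12, 2 and 10 in Adult-D210 replicates 1 to 3. FOXP1 circRNA11105, from a forkhead transcription factor gene, spanned 188870 nt (chr13:57878923-58067792) with 7 exons and had 1 read, in Piglet-D30 replicate 1. Only the LRBA ring of these 3 passed the minimum of 10 reads for testing, and its groups overlapped (log2 fold change 1.30 ± 0.90 (SE), edgeR adjusted p = 0.374).

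At the other end of the rule, the 3 narrowest wide-span circRNAs and the 3 widest compact ones overlapped in abundance. INTU circRNA10239 (20034 nt), USP25 circRNA12003 (20057 nt) and SCARB2 circRNA10093 (20080 nt) had mean SRPBM values of 0.805, 1.35 and 0.374. Just below the limit, STT3B circRNA10693 (19841 nt), ANO10 circRNA10783 (19889 nt) and PTPN13 circRNA10441 (19933 nt) had 3.45, 0.241 and 0.156.

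**Figure D1:**
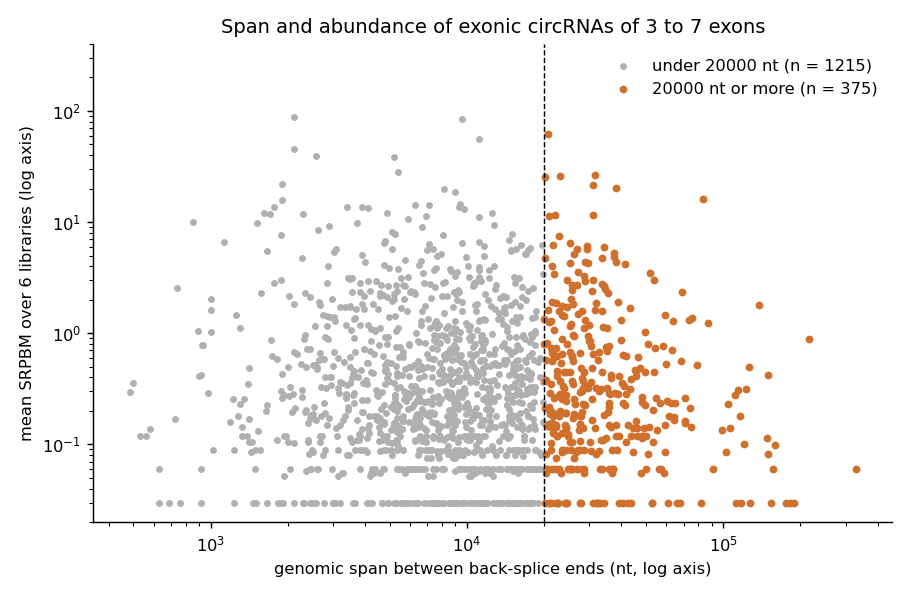
Each point is 1 exonic circRNA of 3 to 7 exons, with its genomic span in nt on a log x axis and its mean SRPBM over the 6 libraries on a log y axis; orange points are the 375 wide-span and grey points the 1215 compact circRNAs, and the dashed line marks 20000 nt. Both classes cover nearly the same range of abundance, and most of the widest circRNAs, above 100000 nt, lie low.

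The mean abundance of wide-span and compact circRNAs differed by less than the spread between libraries. They held 19247 junction reads in all, with a median of 9 reads per circRNA (quartiles 4 and 29) against 10 (4 and 33) for the compact class. In SRPBM, the mean per wide-span circRNA was 2.57, 1.13 and 1.27 in Piglet-D30 replicates 1 to 3 and 1.42, 0.969 and 0.674 in Adult-D210 replicates 1 to 3. Compact circRNAs had means of 2.44, 1.11, 1.18, 1.42, 1.03 and 0.771 in the same order. The difference was 0.0127 ± 0.0874 (SD over n = 6 libraries), higher in 3 libraries and lower in 3 (exact sign-flip test over libraries, two-sided p = 0.75). It turned to -0.267 SRPBM with a span minimum of 30000 nt and to -0.275 with a minimum of 15000 nt, with an exact sign-flip p of 0.0312 in both cases, the smallest p that 6 libraries allow.

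Reads were concentrated in a few rings. The 10 most abundant wide-span circRNAs held 46.7% of all wide-span reads and the 50 most abundant held 77.1%. A mean SRPBM above 10 was reached by 10 of them and one above 1 by 81 (21.6%, against 22.1% of compact circRNAs). A single read was the whole support of 34 (9.07%).

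The most abundant wide-span circRNA came from GRAMD1C, whose product moves sterol between membranes. GRAMD1C circRNA11869 (chr13:155644173-155664955, 4 exons) had 623, 441 and 483 reads in Piglet-D30 replicates 1 to 3 and 383, 262 and 178 in Adult-D210 replicates 1 to 3. It alone made up 12.3% of the wide-span reads. Its SRPBM was 84.2 ± 23.6 (SD, n = 3) in piglets and 39.8 ± 14.1 (SD, n = 3) in adults, and the groups did not overlap on that scale. Relative to the other circRNAs of each library, the log2 fold change was -0.61 ± 0.21 (SE) and missed the threshold (edgeR adjusted p = 0.0820).

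HSF2BP, a partner of the recombination machinery in meiosis, hosted the next by mean SRPBM. HSF2BP circRNA12239 (chr13:216655489-216687050, 5 exons) had 304, 148 and 139 reads in the piglet libraries and 216, 129 and 69 in the adult libraries, and the groups overlapped (adjusted p = 0.711). SMARCC1, a core subunit of the SWI/SNF chromatin remodeller, hosted circRNA10870 (chr13:33801530-33824539, 5 exons), with 280, 195 and 170 reads in piglets and 129, 118 and 92 in adults (log2 fold change -0.56 ± 0.25 (SE), adjusted p = 0.168). TBCD circRNA12264 (chr12:301659-323714, 7 exons), from a tubulin-folding cofactor gene, had 63, 0 and 41 reads in piglets and 216, 91 and 53 in adults. The libraries varied widely within both groups, which overlapped (log2 fold change 2.08 ± 1.02 (SE), adjusted p = 0.282). The other 6 of the 10 most abundant, from ZC3H14 (2 circRNAs), RSRC1, SMARCC1, ZNF827 and the unnamed gene ENSSSCG00000011222, all differed between the stages and are described below.

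Recurrence over libraries had lower values in the wide-span class. Of the 375, 94 were seen in 1 library, 79 in 2, 62 in 3, 40 in 4, 34 in 5 and 66 in all 6. The share seen in all 6 was 17.6%, against 19.3% of compact circRNAs. Outside Piglet-D30 replicate 1, 44.8% and 49.6% of the wide-span circRNAs were detected in Piglet-D30 replicates 2 and 3 and 42.4%, 37.9% and 35.7% in Adult-D210 replicates 1 to 3. The compact class had 46.3% and 50.0% in the same piglet libraries and 46.1%, 43.6% and 40.9% in the adult libraries. Wide-span minus compact was -3.32 ± 2.29 percentage points (SD, n = 5) and below 0 in 5 of 5 libraries. That is the smallest p that an exact sign-flip test over 5 libraries can give (two-sided p = 0.0625), which does not reach 0.05.

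**Figure D2:**
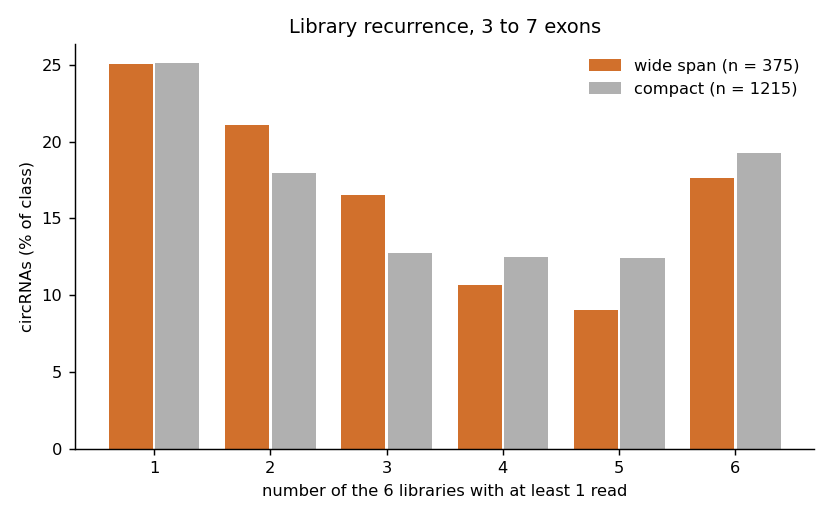
The x axis is the number of the 6 libraries in which a circRNA had at least 1 read and the y axis the percentage of its class; orange bars are the 375 wide-span and grey bars the 1215 compact exonic circRNAs of 3 to 7 exons. About the same share of both classes was seen in 1 library (25.1%), and the bars for 5 and 6 libraries are lower for the wide-span class.

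No read in any Adult-D210 library was found for 160 of the 375 wide-span circRNAs (42.7%), against 38.2% of compact circRNAs, and most of these had few reads in piglets. Since each listed exonic circRNA has a read in Piglet-D30 replicate 1, a circRNA seen in adults alone cannot occur in the table, and these shares are partly fixed by it. With that library left out, 281 wide-span circRNAs had a read in some library, of which 66 (23.5%) were seen in piglets alone, 50 (17.8%) in adults alone and 165 in both. Among 910 compact circRNAs the shares were 17.5% in piglets alone and 17.2% in adults alone. In 18 wide-span circRNAs (4.8%) all 3 piglet libraries had a read and no adult library had one, against 34 compact circRNAs (2.80%). CBLB, which encodes a ubiquitin ligase that restrains immune receptor signalling, hosted 6 wide-span circRNAs with 28 reads between them, 22, 2 and 4 in Piglet-D30 replicates 1 to 3 and 0 in the adult libraries. None of the 6 had the 10 reads needed for testing. All 3 adult libraries had a read for 85 wide-span circRNAs (22.7%) and for 26.1% of compact circRNAs.

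Summed over the class, the difference between the stages lay within the spread of the boars. Wide-span reads per 1000000 mapped reads were 144, 63.8 and 71.3 in Piglet-D30 replicates 1 to 3 and 79.7, 54.5 and 37.9 in Adult-D210 replicates 1 to 3. Adult minus piglet was -35.8 (57.4 ± 21.0 against 93.2 ± 44.5, SD, n = 3 each, exact permutation test, two-sided p = 0.3), and -10.18 without Piglet-D30 replicate 1 (p = 0.6 by exact permutation). A comparison of 3 boars against 3 cannot give a p below 0.1. Among all exonic reads of a library, wide-span circRNAs took 17.1%, 16.2% and 17.6% in the piglets and 17.4%, 16.3% and 15.4% in the adults. This share differed by -0.590 percentage points, less than the spread within either group (exact permutation test, two-sided p = 0.5). The number of wide-span circRNAs detected was 375, 168 and 186 in the piglets and 159, 142 and 134 in the adults, without overlap (exact permutation p = 0.1, the smallest possible). Adult minus piglet was -98 circRNAs, and -32 without Piglet-D30 replicate 1 (exact permutation p = 0.2). The value of 375 was fixed by the table, and each circRNA counted has a read in Piglet-D30 replicate 1. Neither difference can therefore show whether more were detected in piglets.

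Single circRNAs did change. Counts were compared with edgeR's quasi-likelihood test wherever a circRNA had 10 or more reads in all. Differential expression was called where the log2 fold change reached 1 in either direction and the Benjamini-Hochberg adjusted p was under 0.05. Of the 375 wide-span circRNAs, 183 had enough reads to be tested and 31 were called, 12 upregulated and 19 downregulated in Adult-D210. That is 16.9% of those tested. Over all 1341 circRNAs tested, 111 were called (8.28%), 46 upregulated (3.43%) and 65 downregulated (4.85%), and among tested compact circRNAs 51 of 628 (8.12%). At an unadjusted p under 0.05 stood 64 of the 183, against 337 of all 1341 tested and 152 of the 628 compact circRNAs.

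With any 1 library left out, fewer circRNAs were called, both in this class and over all tested circRNAs. Without Adult-D210 replicate 1 there were 14, without Adult-D210 replicate 2 there were 16, and without Adult-D210 replicate 3 there were 22. Leaving out Piglet-D30 replicate 1, 2 or 3 left 15, 23 or 15 calls. Over all tested circRNAs the 111 calls became 33, 51 and 78 without Adult-D210 replicates 1 to 3. They became 54, 73 and 42 without Piglet-D30 replicates 1 to 3. With Piglet-D30 replicate 1 kept out of the filter as well as the test, 20 of 136 wide-span circRNAs were called, against 6.88% of the 1046 circRNAs tested that way. The scale mattered for direction. edgeR's scaling compares a circRNA with the other junction reads of its library. With mapped reads as library size in its place, the median log2 fold change of all tested circRNAs moved from -0.42 to -0.90, and 2 upregulated and 19 downregulated wide-span circRNAs were called. Over all tested circRNAs that scale gave 9 upregulated and 68 downregulated. No called circRNA described below turned its direction on that scale.

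The tested wide-span circRNAs had a median log2 fold change of -0.78, and all tested circRNAs -0.42. Some 23 of the 183 had no adult read, for which a fitted fold change is no measure. With those set to the bound that 3 reads per library allow, the medians were -0.56 and -0.40. Without Piglet-D30 replicate 1 in filter and test, they were -0.07 and -0.08. Medians of the host lists below are given with that library only, so how far they depend on it is not known.

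**Figure D3:**
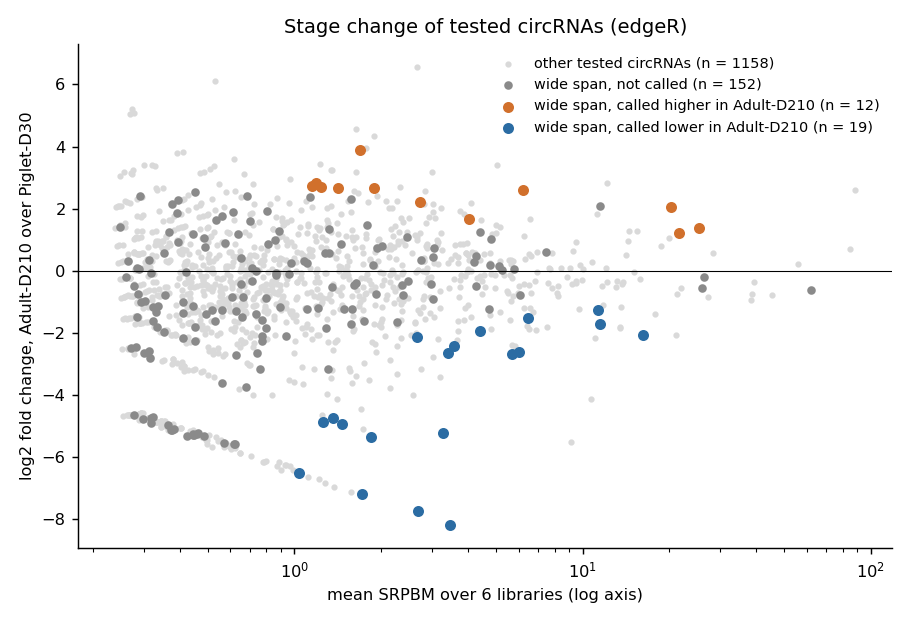
Each point is 1 of the 1341 tested circRNAs, with mean SRPBM over the 6 libraries on a log x axis and edgeR's log2 fold change of Adult-D210 over Piglet-D30 on the y axis; dark grey points are wide-span circRNAs not called, and coloured points the 12 called higher (orange) and 19 called lower (blue) in adults. The slanting row of points at the lower left holds circRNAs with no adult read, whose fitted fold change depends on the fitting method and is no bound.

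Of the 29 tested wide-span circRNAs from hosts of membrane traffic and lipid or ion transport, 6 were called (20.7%, against 16.9% of tested wide-span and 8.28% of all tested circRNAs), and the median log2 fold change was -0.61, against -0.78 for all tested wide-span circRNAs. SLC4A4 encodes a sodium bicarbonate cotransporter. SLC4A4 circRNA10039 (chr8:71895225-71946859, 6 exons) had 63, 28 and 34 reads in Piglet-D30 replicates 1 to 3 and 0 in each Adult-D210 library. Against a floor of 3 reads per adult library, its SRPBM was at least 15.8-fold lower in adults, and at least 10.9-fold without Piglet-D30 replicate 1. It was called with all libraries (edgeR adjusted p = 0.000441) and with any 1 library left out. Together the 6 wide-span circRNAs of SLC4A4 had 77, 28 and 40 reads in piglets and 0 in adults.

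OSBPL10, of the oxysterol-binding protein family, and SLC25A26, the carrier of S-adenosylmethionine into mitochondria, showed the same direction. OSBPL10 circRNA10707 (chr13:19959468-20018550, 3 exons) had 26, 14 and 12 reads in piglets and 0, 1 and 0 in adults. The ratio of reads per mapped read, piglet over adult, was 57.9 (95% exact interval 9.94 to 2329, counting error only). Without Piglet-D30 replicate 1 the ratio was 41.35 (6.79 to 1695). This ring had an adjusted p of 0.0121 with all libraries. It was not called without Piglet-D30 replicate 1 (0.0701) or Adult-D210 replicate 1 (0.0813). SLC25A26 circRNA11080 (chr13:52502787-52537175, 4 exons) had 94, 41 and 60 reads in piglets and 19, 7 and 0 in adults (log2 fold change -2.62 ± 0.57 (SE), adjusted p = 0.00976). That call was lost without Piglet-D30 replicate 1, Piglet-D30 replicate 3 or Adult-D210 replicate 2, with edgeR adjusted p from 0.0552 to 0.0826.

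NDST3 is an enzyme that sulfates heparan sulfate in the Golgi. NDST3 circRNA10295 (chr8:113000638-113029251, 4 exons) had 70, 3 and 42 reads in piglets and 1, 0 and 1 in adults. Every piglet library lay above the adults, but replicate 2 only by a few reads. The ratio of reads per mapped read was 64 (95% exact interval 17.3 to 535, counting error only), and 35.8 (9.35 to 304) without Piglet-D30 replicate 1. The adjusted p was 0.00485, and the call was lost without Piglet-D30 replicate 1 (0.0606) or Adult-D210 replicate 1 (0.0821).

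Of the same host list (membrane traffic, lipid and ion transport, 16 hosts with 51 wide-span circRNAs), 29 were tested, 4 were downregulated and 2 upregulated. The 2 upregulated came from lysosome-related hosts, GALC (galactosylceramidase) and SUMF1 (the enzyme that activates sulfatases). SUMF1 circRNA11137 (chr13:67301255-67331110, 5 exons) had 4, 0 and 3 reads in piglets and 20, 9 and 13 in adults, and GALC circRNA1043 (chr7:116381959-116407088, 7 exons) had 5, 0 and 2 and then 18, 14 and 7. Neither pair of groups overlapped. Their log2 fold changes were 2.84 ± 0.80 and 2.74 ± 0.83 (SE) with adjusted p of 0.0331 and 0.0450 (edgeR), and both calls were lost with any 1 of the 6 libraries left out (0.0636 to 0.155). Together the 3 wide-span circRNAs of SUMF1 had 64, 2 and 15 reads in piglets and 25, 16 and 16 in adults, so the host as a whole did not show the upregulation of circRNA11137. With circRNAs without adult reads at their bound, the median log2 fold change of the 29 was -0.55. In the same list GRAMD1C circRNA11865, which ends at the same position as circRNA11869, had 52, 20 and 10 reads in piglets and 47, 22 and 10 in adults and was not called (adjusted p = 0.775).

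Of tested circRNAs from hosts of cell adhesion and receptor signalling, 34.8% were called, against 16.9% of tested wide-span and 8.28% of all tested circRNAs. These hosts gave 8 of the 31 calls. Of 49 wide-span circRNAs from 17 such hosts, 23 were tested, 7 were downregulated and 1 was upregulated. Their median log2 fold change was -1.71 (-1.38 with the bound). It was -0.78 (-0.56) for all tested wide-span circRNAs and -0.42 (-0.40) for all tested circRNAs. The downregulated ones came from PTPRG and PTPN13 (tyrosine phosphatases), EPHA3 (an ephrin receptor), TRAF3 (a signalling adaptor), NECTIN3 (an adhesion molecule of cell junctions), ANTXR2 (a matrix-binding receptor) and APP (the amyloid precursor protein).

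PTPRG circRNA11043 (chr13:47757221-47782954, 5 exons) had 63, 12 and 20 reads in piglets and EPHA3 circRNA11957 (chr13:177456123-177480795, 6 exons) had 32, 16 and 14. Both had 0 reads in each adult library. Their SRPBM was at least 12.3-fold and 7.86-fold lower in adults, and at least 5.61-fold and 5.26-fold without Piglet-D30 replicate 1, with edgeR adjusted p of 0.00309 and 0.00496 with all libraries. Without Piglet-D30 replicate 1 the adjusted p rose to 0.0529 and 0.0583, while with that library out of the filter too they were 0.0340 and 0.0375.

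PTPN13 circRNA10446 (chr8:141457586-141479430, 4 exons) had 45, 31 and 37 reads in piglets and 6, 4 and 4 in adults. Every adult library lay far below every piglet library (log2 fold change -2.66 ± 0.50 (SE), adjusted p = 0.00349), with any 1 library left out as well. TRAF3 circRNA1200 (chr7:128933811-128960887, 5 exons) had 41, 32 and 44 reads and then 11, 3 and 4 (log2 fold change -2.41 ± 0.51 (SE), adjusted p = 0.00792). The TRAF3 call was lost narrowly without Piglet-D30 replicate 3 (0.0527) or Adult-D210 replicate 2 (0.0523). NECTIN3 circRNA11897 (chr13:158525065-158563363, 6 exons) had 35, 51 and 52 reads in piglets and 8, 13 and 8 in adults (log2 fold change -1.93 ± 0.49 (SE), adjusted p = 0.0226). It was called without Piglet-D30 replicate 1 (0.0322) or Adult-D210 replicate 2 (0.0467) and not without any of the other 4 libraries (0.0671 to 0.137).

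ANTXR2 circRNA10552 (chr8:146890664-146915909, 7 exons) had 97, 41 and 53 reads in piglets and 20, 10 and 21 in adults (log2 fold change -1.52 ± 0.41 (SE), adjusted p = 0.0305), and was called without Piglet-D30 replicate 2 or Adult-D210 replicate 3 only (without the others, 0.0970 to 0.157). APP circRNA12027 (chr13:199361578-199437071, 6 exons) had 33, 2 and 12 reads in piglets and 0, 0 and 1 in adults, with 1 piglet library close to the adult level. The APP call (adjusted p = 0.0393) held without Piglet-D30 replicate 2 and with no other library left out (0.0732 to 0.239). The upregulated member of this list came from DLG1, a scaffold protein of cell junctions, and is described with its partner below.

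Chromatin, transcription and RNA-binding hosts moved in both directions. Of 29 wide-span circRNAs from 12 such hosts, 17 were tested, 2 were upregulated and 2 downregulated, with a median log2 fold change of -1.20 (-0.91 with the bound). Calls made up 23.5% of those tested, against 16.9% of tested wide-span and 8.28% of all tested circRNAs. Both upregulated circRNAs came from SETD2, the methyltransferase that places the third methyl group on lysine 36 of histone H3. SETD2 circRNA10823 (chr13:33157395-33184216, 5 exons) had 11, 4 and 8 reads in piglets and 38, 30 and 18 in adults (log2 fold change 2.21 ± 0.50 (SE), adjusted p = 0.0112). SETD2 circRNA10825, with the same end and 1 exon less (chr13:33160394-33184216), had 1, 4 and 4 and then 26, 16 and 7 (2.65 ± 0.72, adjusted p = 0.0289). The groups of neither overlapped. Without Piglet-D30 replicate 2, Adult-D210 replicate 1 or Adult-D210 replicate 2 the first was lost (0.0508 to 0.0602), and the second was called only without Adult-D210 replicate 3 (0.0319) and otherwise stood between 0.0640 and 0.140.

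SMARCC1 circRNA10860 (chr13:33793618-33824539, 7 exons) went the other way, with 156, 101 and 90 reads in piglets and 31, 33 and 18 in adults (log2 fold change -1.72 ± 0.33 (SE), adjusted p = 0.00485, called with any 1 library left out). ZNF827, a zinc finger protein gene, hosted circRNA10176 (chr8:88019043-88039934, 3 exons), with 133, 87 and 102 reads and then 45, 24 and 37 (-1.27 ± 0.32, adjusted p = 0.0204). All adult libraries lay below all piglet libraries for both. The ZNF827 call held without Piglet-D30 replicate 2 or Adult-D210 replicate 3 and was lost without any of the other 4 (0.0664 to 0.113).

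Hosts linked to germ cells, meiosis, centrioles or the flagellum gave 8 tested circRNAs of 17, 1 upregulated and 2 downregulated, with a median log2 fold change of 0.53. The called share was 37.5%, against 16.9% of tested wide-span and 8.28% of all tested circRNAs. SPATA5, which encodes an AAA ATPase, hosted circRNA10244 (chr8:108342978-108386252, 4 exons), with 4, 0 and 1 reads in piglets and 35, 15 and 15 in adults. This was the largest upregulation among the 12 (log2 fold change 3.90 ± 0.77 (SE), adjusted p = 0.00392), and it was called with any 1 library left out. SPATA5 circRNA10242, which starts at the same position and reaches 1 exon further, had 7, 7 and 2 reads in piglets and 3, 0 and 1 in adults (-1.61 ± 1.1, adjusted p = 0.362). Both downregulated circRNAs came from NEK10, a kinase known from motile cilia. NEK10 circRNA10676 (chr13:15427699-15457207, 5 exons) had 103, 34 and 48 reads in piglets and 11, 6 and 5 in adults (-2.69 ± 0.47, adjusted p = 0.00269, called with any 1 library left out). NEK10 circRNA10674 (chr13:15407814-15457207, 7 exons) had 15, 4 and 19 reads and then 0 in each adult library, at least 4.73-fold lower (adjusted p = 0.0281). Without Piglet-D30 replicate 1 the bound was 4.04-fold. This ring was called without Piglet-D30 replicate 2 and with no other library left out (0.0699 to 0.128). CEP63 circRNA11294 (chr13:83142279-83179748, 5 exons), from a centrosome protein gene, had 9, 33 and 29 reads in piglets and 73, 17 and 38 in adults and was not called (adjusted p = 0.228).

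Of 22 wide-span circRNAs from GTPase signalling and cytoskeleton hosts, 8 were tested, with a median log2 fold change of 1.13. Among the 8, 12.5% were called, against 16.9% of tested wide-span and 8.28% of all tested circRNAs. The 1 called was the upregulated BAIAP2 circRNA12280, the ring whose primers are given above. Its host encodes IRSp53, a protein that acts on actin at curved membranes. It had 18, 12 and 12 reads in piglets and 106, 61 and 43 in adults, without overlap. Its SRPBM was 2.30 ± 0.793 (SD, n = 3) in piglets and 10.1 ± 4.25 (SD, n = 3) in adults (log2 fold change 2.60 ± 0.38 (SE), adjusted p = 0.000717). The call held with any 1 library left out and with mapped reads as library size (adjusted p = 0.0341). Also in this list, DOCK3 circRNA10952, from an exchange factor gene for Rac, had 7, 0 and 5 reads and then 27, 23 and 0 (adjusted p = 0.132). TIAM1 circRNA12068, from another Rac exchange factor gene, had 20, 5 and 13 reads and then 15, 11 and 8 (adjusted p = 0.863).

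Outside these lists, 107 hosts gave 207 wide-span circRNAs, of which 98 were tested, 5 upregulated and 4 downregulated. That is 9.18% of those tested, against 16.9% of tested wide-span and 8.28% of all tested circRNAs. ENSSSCG00000011222, a gene with no symbol in the tables used here, hosted the upregulation with the smallest p. Its circRNA10691 (chr13:18138045-18176107, 4 exons) had 97, 43 and 51 reads in piglets and 297, 181 and 147 in adults (log2 fold change 2.05 ± 0.28 (SE), adjusted p = 0.000356), and was called with any 1 library left out but not with mapped reads as library size (0.0770). A second ring of this gene, circRNA10690, with the same end and a span of 87065 nt, had 3, 1 and 4 and then 14, 14 and 14 reads (2.69 ± 0.72, adjusted p = 0.0260). Its groups did not overlap, yet the call was lost with any 1 library left out (0.0527 to 0.0902).

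ZC3H14 encodes a protein that binds poly(A) tails. Its circRNA1055 (chr7:116973936-116994106, 3 exons) had 122, 105 and 94 reads in piglets and 367, 179 and 156 in adults, and circRNA1056 (chr7:116973936-117004866, 6 exons) had 148, 73 and 79 and then 266, 167 and 122. Both were upregulated relative to the other circRNAs (log2 fold changes 1.39 ± 0.25 and 1.22 ± 0.27 (SE), edgeR adjusted p of 0.00320 and 0.00943). On the SRPBM scale the groups of both overlapped, and with mapped reads as library size neither was called (adjusted p = 0.182 and 0.355). The first was called with any 1 library left out, and the second was lost without Piglet-D30 replicate 3, Adult-D210 replicate 1 or Adult-D210 replicate 2 (0.0576 to 0.0734). C3orf67 circRNA11039 (chr13:44645509-44677450, 3 exons) had 7, 5 and 0 reads and then 48, 7 and 12, and its groups overlapped in SRPBM (adjusted p = 0.0376, called otherwise only without Adult-D210 replicate 2, and 0.0657 to 0.310 without the others).

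RSRC1, linked to pre-mRNA splicing, hosted the most abundant downregulated ring. RSRC1 circRNA11480 (chr13:106138563-106221705, 3 exons) spanned 83143 nt and had 198, 163 and 154 reads in piglets and 25, 21 and 47 in adults. Its SRPBM fell from 28.0 ± 6.41 to 4.42 ± 1.73 (SD, n = 3 each), and it was called with any 1 library left out (log2 fold change -2.07 ± 0.36 (SE), adjusted p = 0.00269). WDR49 circRNA11508 (chr13:115001182-115027211, 5 exons) had 25, 14 and 28 reads in piglets and 1, 0 and 0 in adults. The ratio of reads per mapped read was 74.5 (95% exact interval 12.9 to 2988, counting error only), and 66.8 (11.35 to 2700) without Piglet-D30 replicate 1. With all libraries the adjusted p was 0.00485, and this ring too was called with any 1 library left out. The remaining downregulated circRNAs outside the lists were a second WDR49 ring (circRNA11505, 38, 17 and 29 reads and then 8, 3 and 4, adjusted p = 0.0233) and PIK3CB circRNA11329 (8, 13 and 26 reads and then 0, 1 and 0, adjusted p = 0.0249). These 2 were chosen after their values were seen. WDR49 circRNA11505 was called without Piglet-D30 replicate 2 only (0.0699 to 0.103 without the others) and PIK3CB circRNA11329 without Piglet-D30 replicate 1 only (0.0567 to 0.134 without the others).

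Of the 31 calls, 10 held with each of the 6 libraries left out in turn, 4 upregulated and 6 downregulated. Without Piglet-D30 replicate 1 in filter and test, 18 of the 31 were called, 6 upregulated and 12 downregulated. With mapped reads as library size, 20 of the 31 were called, 2 of the 12 upregulated and 18 of the 19 downregulated. The 2 upregulated ones were BAIAP2 circRNA12280 and SPATA5 circRNA10244, so each of the other upregulated calls was lost on that scale. Reads in all 6 libraries were found for 17 of the 31. The SRPBM of the groups did not overlap for 28 of the 31 and for 60 of the 183 tested (32.8%), against 27.2% of all tested circRNAs.

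**Figure D4:**
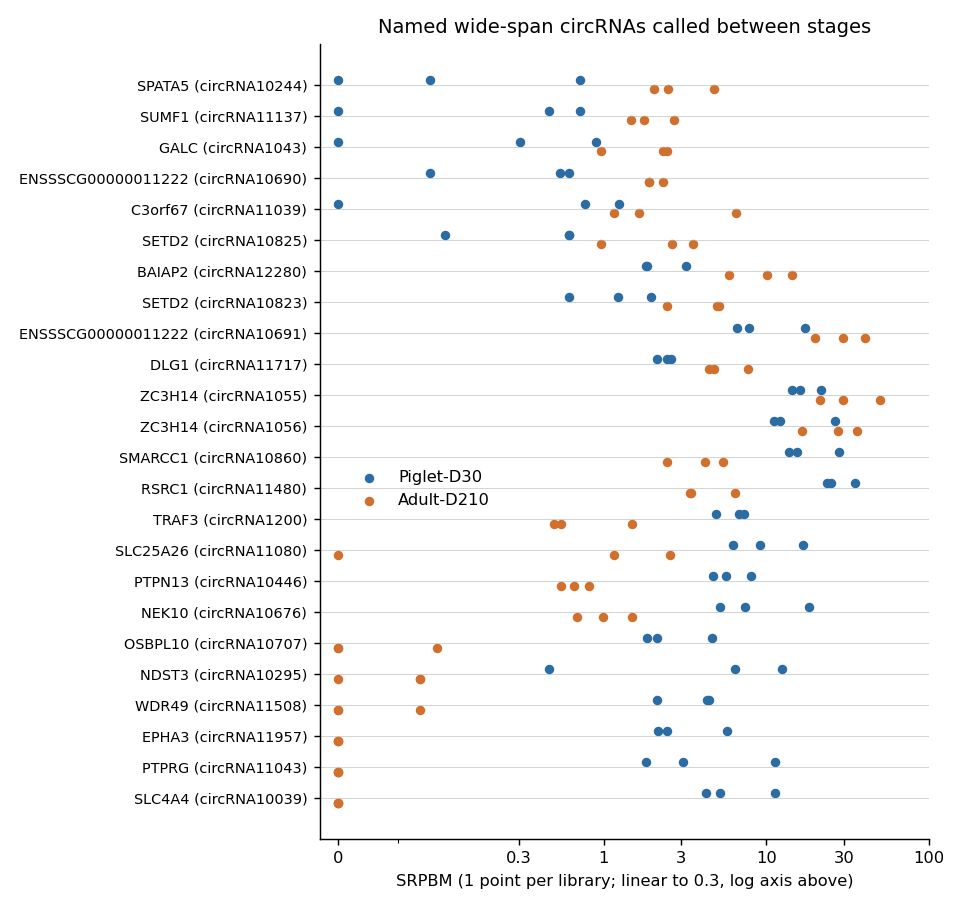
SRPBM in each library, linear up to 0.3 and on a log axis above, for the 12 upregulated and the 12 downregulated wide-span circRNAs with the smallest p, ordered by log2 fold change; each row is 1 circRNA, blue points are the 3 Piglet-D30 and orange points the 3 Adult-D210 libraries. The adult points of SLC4A4, PTPRG and EPHA3 all lie at 0, and blue and orange points of both ZC3H14 circRNAs and of C3orf67 overlap.

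Several rings per host were common. Of the 168 hosts, 86 gave 1 wide-span circRNA and 34 gave 4 or more. Among the 375, 201 (53.6%) shared a genomic start or end with another wide-span circRNA. RNF13, a membrane-bound ubiquitin ligase gene, gave 10, and APP and TIAM1 gave 9 each. SMARCC1 followed with 8.

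The 10 circRNAs of RNF13 spanned 25847 to 78890 nt and had 5 to 232 reads each. RNF13 circRNA11434 (chr13:98162592-98191973, 3 exons) held most of them, with 55, 43 and 61 reads in piglets and 24, 22 and 27 in adults (log2 fold change -0.78 ± 0.39 (SE), adjusted p = 0.219). RNF13 circRNA11431 (chr13:98146479-98181473, 4 exons) had 12, 7 and 7 reads and then 0, 0 and 2 (adjusted p = 0.131). None of the 9 tested RNF13 circRNAs was called by edgeR.

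APP gave 147 wide-span reads in piglets and 28 in adults over its 9 circRNAs, with APP circRNA12026 (chr13:199361578-199385121, 5 exons) at 28, 10 and 14 and then 7, 1 and 5 reads (adjusted p = 0.151). TIAM1 gave 94 and 40 reads over 9 circRNAs. Of these, 3 were tested and none was called, and TIAM1 circRNA12061 (chr13:205210925-205256332, 7 exons) had 13, 3 and 0 reads in piglets and 0 in each adult library (adjusted p = 0.160). Of these 4 hosts SMARCC1 had the most reads, 619, 371 and 327 in the piglet libraries and 262, 228 and 154 in the adult libraries. Its 6 tested circRNAs ranged from the called decrease of circRNA10860 to circRNA10880, at 62, 14 and 21 and then 48, 22 and 16 reads (log2 fold change 0.18, adjusted p = 0.837). SMARCC1 circRNA10877 (chr13:33815459-33841548, 6 exons) had 56, 26 and 24 and then 26, 42 and 20 (adjusted p = 0.848).

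Where 2 tested rings of a host shared a start or an end, the share of the pair's reads taken by the less abundant ring shows whether they changed together. With at least 5 reads for the pair in each library, 34 such pairs of wide-span circRNAs from 19 hosts could be followed. For 8 of them (23.5%) the shares did not overlap between the stages, against 16.4% of 456 pairs of all exonic circRNAs. With 3 boars a group the exact permutation p of each was 0.1, the smallest possible, so none reached 0.05.

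DLG1 was 1 of these. Its circRNA11717 (chr13:142562710-142584123, 3 exons) and circRNA11718 (chr13:142562710-142600017, 4 exons) start at the same position. The shorter took 25%, 33.3% and 28.3% of the pair in piglets and 50.9%, 61.4% and 59.3% in adults, a difference of 28.3 percentage points (exact permutation p = 0.1, n = 3 each). It had 12, 16 and 17 reads in piglets and 57, 27 and 35 in adults (log2 fold change 1.66 ± 0.43 (SE), adjusted p = 0.0249), whereas the longer had 36, 32 and 43 and then 55, 17 and 24 (adjusted p = 0.981). The call of the shorter was lost with any 1 library left out (edgeR adjusted p from 0.0519 to 0.106).

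SMARCC1 circRNA10860 took 35.8%, 34.1% and 34.6% of its pair with circRNA10870, which has the same end, in piglets and 19.4%, 21.9% and 16.4% in adults. The piglet libraries agreed within 2 percentage points of each other, and adult minus piglet was -15.6 percentage points on average. NEK10 circRNA10674 took 12.7%, 10.5% and 28.4% of its pair in piglets and 0% in adults. The NEK10 pair had only 11, 6 and 5 reads in Adult-D210 replicates 1 to 3, too few to tell 0% from a small share. HSF2BP circRNA12238 took 9.25%, 6.33% and 7.33% of its pair with circRNA12239 in piglets and 13.2%, 9.79% and 22.5% in adults, and neither ring was called. The shares of the ZC3H14 rings overlapped between the stages, at 54.8%, 41.0% and 45.7% for circRNA1056 in piglets and 42.0%, 48.3% and 43.9% in adults (exact permutation p = 0.7, n = 3 each). The ring of ENSSSCG00000011222 with the wider span also had overlapping shares, 2.27% to 7.27% in piglets and 4.50% to 8.70% in adults.

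**Figure D5:**
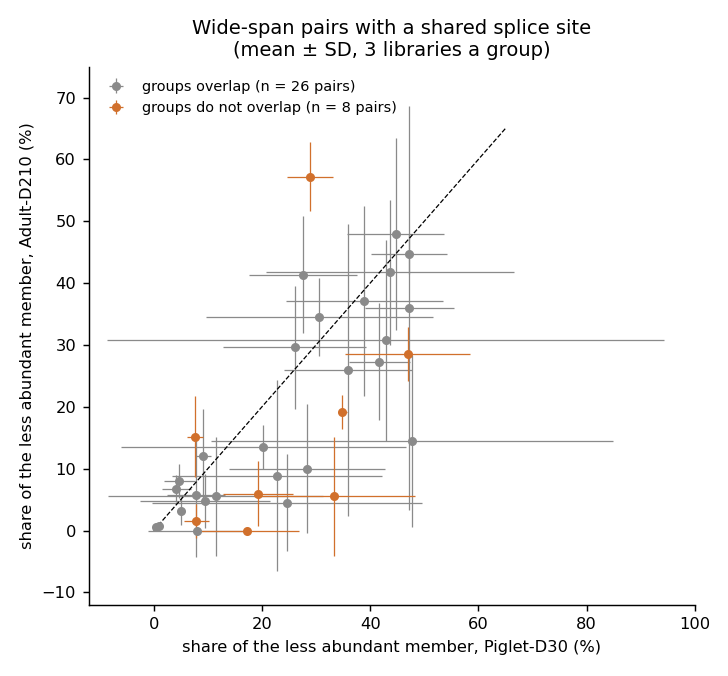
Each point is 1 of 34 pairs of wide-span circRNAs of the same host that share a start or an end, with the percentage of the pair's reads in the less abundant ring in Piglet-D30 on the x axis and in Adult-D210 on the y axis; bars are the SD over 3 libraries and the dashed line marks equal shares. Orange marks the 8 pairs whose libraries did not overlap between stages, among them the DLG1 pair at 28.9% in piglets and 57.2% in adults.

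Most hosts of wide-span circRNAs also gave compact ones. This held for 130 of the 168 hosts and 311 of the 375 circRNAs. The 31 called circRNAs came from 26 hosts, 9 with upregulated and 17 with downregulated rings and 0 with both. Of the 26 hosts, 14 also had a tested compact circRNA and 5 had a called one. Over all hosts, 51 of 628 tested compact circRNAs were called (8.12%). Whether the called hosts differed from other hosts in this was not tested. SETD2 had 1 of 6 tested compact circRNAs upregulated. PTPN13 had 1 of 10 downregulated, EPHA3 1 of 2 and NECTIN3 2 of 2. These called ones had the direction of the wide-span rings of their hosts. NEK10 had 2 tested compact circRNAs, 1 called in each direction, beside its 2 downregulated wide-span rings. SMARCC1 had 15 tested compact circRNAs and 0 called by edgeR. ZC3H14, RSRC1, ZNF827, SLC25A26, SPATA5, C3orf67 and ENSSSCG00000011222 had no compact circRNA in the table.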

How the data were processed

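Testis RNA from 3 Piglet-D30 and 3 Adult-D210 boars, grouped by sample title, was sequenced as 150 nt read pairs after removal of ribosomal and linear RNA. The authors trimmed and mapped the reads (TopHat2), searched the unmapped ones for back-splice junctions (TopHat-Fusion, CIRCExplorer2) and deposited, for each library, an unnormalized count of junction reads. Beside it the authors gave SRPBM, a signal scaled by mapped reads and read length. Mapped reads were recovered from the ratio of the 2 columns. The count covers a part of each library, so totals of the table are not its depth.

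Counts were tested with edgeR 4.0.16 in R 4.3.3 (at least 10 reads over the 6 libraries, TMM scaling, robust quasi-likelihood F test, Benjamini-Hochberg adjustment over 1341 circRNAs). The code was tested on simulated data. Single values per library were compared by exact permutation in Python 3.11.15 with SciPy 1.17.1. Every pair of replicates differed beyond counting noise (ratio of chi-square to degrees of freedom, 3.09 to 4.04). Intervals and floors of 3 reads cover counting error only, as junction reads carried no molecular identifiers. Values in parentheses beside left-out libraries are adjusted p of the same edgeR test.

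The members, host lists, marker genes and rules were chosen with earlier results of these data known, so no list is independent support. Named circRNAs are the called ones (12 per direction, by p), the 10 most abundant, the 2 most abundant of the 4 hosts with most members, the 3 widest, the 3 on either side of the span limit, the one assayed by RT-qPCR and up to 4 per host list by mean SRPBM. The other rings of SLC4A4 and SUMF1, CBLB, SPATA5 circRNA10242, HSF2BP circRNA12238, SMARCC1 circRNA10880, WDR49 circRNA11505 and PIK3CB circRNA11329 were chosen after their values were seen. Of 45 hosts listed by Ensembl identifier, 30 matched a symbol. Alternatives tried were DESeq2 1.42.0, other scalings, tests, filters and span limits, a replicate block and each library left out. Detection counts and fold bounds without Piglet-D30 replicate 1 were added after seeing the data.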

Additional observations from a re-analysis of the deposited data

How the results depend on the processing

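The 31 calls among wide-span circRNAs became 20, with 12 downregulated, when Piglet-D30 replicate 1 was kept out of filter and test, and 14 (5 upregulated, 9 downregulated) with a span minimum of 30000 nt, where fewer circRNAs are members. With mapped reads as library size 2 were upregulated. Leaving out 1 library gave 14 to 23 calls, 4 to 8 upregulated and 9 to 18 downregulated. Over all tested circRNAs the same fits gave 33 to 78 calls in place of 111. The same replicate numbers did not deviate together (r from -0.031 to 0.051), and a replicate block gave 11 calls, 5 upregulated and 6 downregulated, all 11 among the 31. Over all tested circRNAs the block gave 33 calls. DESeq2, no TMM, the exact test, the older quasi-likelihood fit, other filters, exonic circRNAs alone, no fold change limit and a span minimum of 15000 nt gave 26 to 41. The difference in mean SRPBM between wide-span and compact circRNAs turned to -0.0256 with medians, to -0.275 and -0.267 with span minimums of 15000 and 30000 nt, and ranged from -0.0107 to 0.0346 with 1 library left out. Of the named circRNAs, only 5 that were not called turned direction. circRNA10877 turned to -0.42 with mapped reads and ranged from -0.31 to 0.47 with 1 library left out. circRNA11718 turned to -0.11 with a filter of 5 reads, -0.0598 with filterByExpr, -0.11 without Piglet-D30 replicate 1 in filter and test and -0.39 with mapped reads (left out in turn, -0.29 to 0.27). circRNA11865 turned to -0.26 and circRNA12068 to -0.33 with mapped reads (left out in turn, -0.13 to 0.93 and -0.18 to 0.50). circRNA12239 turned to 0.0701 without Piglet-D30 replicate 1 in filter and test (left out in turn, -0.37 to 0.0738). The cause of these changes was not tested. A wide-span circRNA had a median of 9 reads in all, so that absence from a library is mostly not detectable at this depth.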
